A study of Mus musculus with 3 samples.

Results

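The genes described here encode 8 transcriptional regulators of effector T cell differentiation, Tbx21, Eomes, Prdm1, Id2, Zeb2, Bhlhe40, Runx3 and Irf8. They were chosen by name and are 8 of the 18029 genes in the deposited count table. All 8 passed the filter on low counts in both lineages when the cells of a pool were summed. The study used droplet single-cell RNA sequencing to ask how the calcineurin inhibitor cyclosporine (CSA) alters donor T cells early after allogeneic bone marrow transplantation. All recipients were B6D2F1 mice given B6 bone marrow, B6 T cells and TEa TCR-transgenic T cells, CD4+ cells whose receptor recognises a host-derived peptide. The 3 groups differed in what was given daily from day 0 to day 6, namely saline, a low dose of CSA (5 mg/kg) or a high dose of CSA (50 mg/kg). Donor T cells were sorted from the spleen on day 7, and CD4+ and CD8+ cells of a group were combined in equal numbers. Each group held 6 mice in 3 pools of 2 mice, separated afterwards by hashtag antibodies, so that n = 3 pools per group. Each group was also a single droplet capture, so the capture and the treatment cannot be told apart, and p-values measure the spread between pools of 1 capture.

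After filtering by the study, 21204 cells remained, of which 10371 were CD4+ and 10833 CD8+. The CD4+ sums of a pool held 875 to 1479 cells and 3994968 to 7592334 unique molecular identifiers (UMIs), and the CD8+ sums held 692 to 1615 cells and 4392100 to 11454636 UMIs. The 280 TEa cells were left out of the sums. The median UMI count per cell moved with the dose, from 3097 in saline through 4396 at 5 mg/kg to 5979.5 at 50 mg/kg in CD4+ T cells, and from 4108 through 6121.5 to 7183 in CD8+ T cells. Of 20986 distinct barcodes, 218 were seen in more than 1 capture, and 5.09% of cells carried a second hashtag at 0.5 or more of the strongest. Levels over all cells are given as UMIs scaled to a common library total (CPM) after TMM scaling, which sets the bulk of genes equal between pools, and in a sum over cells fewer cells of a type and less RNA per cell cannot be told apart.

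T-bet, encoded by Tbx21, and Eomesodermin, encoded by Eomes, are T-box factors that drive interferon-gamma and cytotoxic programs in CD4+ and CD8+ T cells. Zeb2, a zinc finger repressor acting downstream of T-bet, and Blimp-1, the product of Prdm1, push effector cells towards terminal differentiation, while Id2 binds E proteins and holds them off DNA. Runx3 sets the cytotoxic lineage, Irf8 is an interferon regulatory factor induced by antigen receptor signals, and Bhlhe40 is a basic helix-loop-helix repressor of activated T cells that is needed for full cytokine production. Calcineurin, the target of CSA, lets NFAT enter the nucleus after antigen receptor signalling, where NFAT often binds next to AP-1.

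The proximal promoters are shown of the T-box pair, in which Eomes moved with the dose and Tbx21 did not pass the test, and of the terminal differentiation factors Prdm1 and Zeb2, which were lower at the high dose in both lineages. Each is the 250 bases before the annotated start, read 5′ to 3′ on the gene's strand, from RefSeq on GRCm38.p6. They are chr11:97115332-97115581 (minus strand) for Tbx21, chr9:118477939-118478188 (plus strand) for Eomes, chr10:44458749-44458998 (minus strand) for Prdm1 and chr2:45117443-45117692 (minus strand) for the first of 4 entries for Zeb2. Capitals mark matches, on either strand, to any of the 7 motifs searched.
Tbx21: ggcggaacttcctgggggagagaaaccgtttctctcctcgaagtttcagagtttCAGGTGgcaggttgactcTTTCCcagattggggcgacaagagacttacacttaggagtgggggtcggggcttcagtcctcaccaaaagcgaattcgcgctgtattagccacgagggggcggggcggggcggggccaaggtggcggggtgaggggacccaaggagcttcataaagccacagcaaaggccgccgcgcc
Eomes: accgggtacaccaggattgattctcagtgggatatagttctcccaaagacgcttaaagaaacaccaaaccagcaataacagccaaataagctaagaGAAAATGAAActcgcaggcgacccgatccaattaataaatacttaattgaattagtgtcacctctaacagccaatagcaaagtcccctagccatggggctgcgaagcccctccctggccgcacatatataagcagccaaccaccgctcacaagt
Prdm1: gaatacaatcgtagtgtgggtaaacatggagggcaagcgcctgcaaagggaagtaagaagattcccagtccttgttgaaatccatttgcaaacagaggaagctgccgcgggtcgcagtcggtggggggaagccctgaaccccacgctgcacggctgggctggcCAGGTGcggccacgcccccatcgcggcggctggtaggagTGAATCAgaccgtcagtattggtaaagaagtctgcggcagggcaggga
Zeb2: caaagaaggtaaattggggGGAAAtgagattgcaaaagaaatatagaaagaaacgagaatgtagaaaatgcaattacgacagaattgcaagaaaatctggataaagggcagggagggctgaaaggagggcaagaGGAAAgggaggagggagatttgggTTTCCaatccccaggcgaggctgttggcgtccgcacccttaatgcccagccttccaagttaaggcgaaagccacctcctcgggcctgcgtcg
The motifs were the NFAT core GGAAA, found in 55.7% of 32536 promoters of the same length, AP-1 as TGANTCA (6.73%), the T-box site GGTGTGA (3.33%), RUNX as TGTGGT (14%), the E-box CACGTG bound by Bhlhe40 (6.04%), the E2-box CACCTG bound by Zeb2 (17.3%) and the IRF pair, in which GAAA is repeated on the same strand after any 2 bases (2.98%). No matches of different motifs overlapped. The Tbx21 window held 1 NFAT core and 1 E2-box, the Eomes window 1 IRF pair, the Prdm1 window 1 AP-1 site and 1 E2-box, and the first Zeb2 window 3 NFAT cores. Of the windows not shown, the second and the third of the Zeb2 entries held 2 NFAT cores each, the fourth held 2 AP-1 sites, the first Runx3 entry held 2 RUNX sites and 1 E2-box, the first Irf8 entry held 1 NFAT core, the second 2 NFAT cores and 1 E2-box, and Id2 held none of the 7 motifs. Bhlhe40 is named only. A match is a run of letters in these windows and not a measured binding site.

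Before any effect of CSA, the factors differed between the lineages of the saline pools. In a fit with the pool as a block, 6 of the 8 were higher in CD8+ than in CD4+ T cells and 1 was lower, where 21.5% of the 10810 genes tested were higher and 21.4% lower (edgeR quasi-likelihood test, Benjamini-Hochberg adjusted p below 0.05). The median log2 difference was 0.64 over the 8 and -0.00 over all genes tested. Eomes stood furthest apart, by 2.00 ± 0.11 (log2, SE; edgeR adjusted p = 2.09e-17), followed by Prdm1 at 1.09 ± 0.09 (1.34e-12), Zeb2 at 0.77 ± 0.11 (1.66e-07) and Irf8 at 0.70 ± 0.07 (3.85e-11). Runx3, which is required for the CD8+ lineage, was higher in CD8+ cells by 0.57 ± 0.04 (adjusted p = 1.25e-13) and Tbx21 by 0.49 ± 0.04 (1.60e-11). Bhlhe40 was lower in CD8+ cells by a log2 difference of -0.58 ± 0.04 (1.81e-13), and Id2 at -0.07 ± 0.03 (0.132) did not pass the test.

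**Figure D1:**
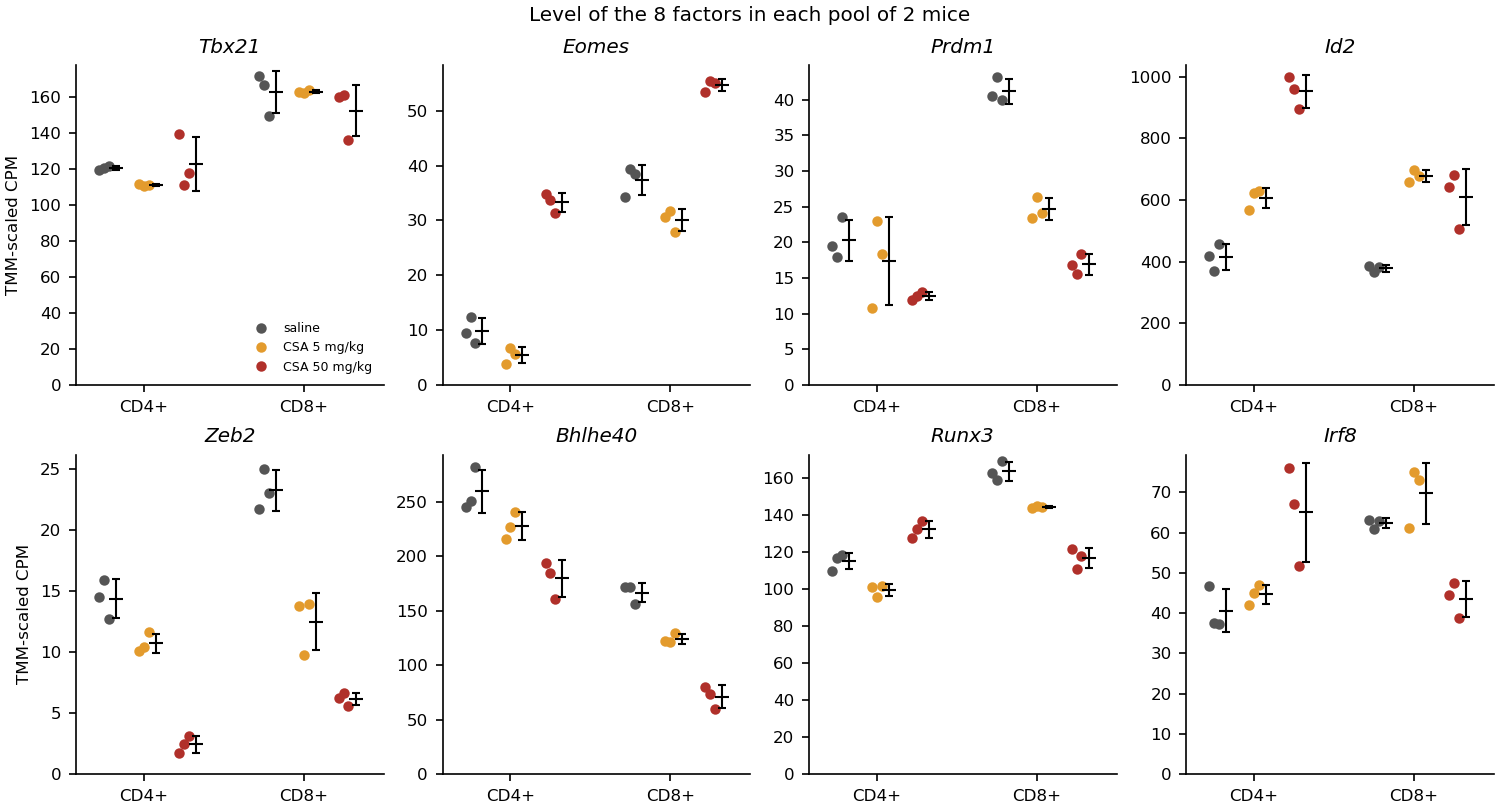
TMM-scaled CPM (linear axis from 0) of each factor in every pool of 2 mice, by lineage and treatment, with bars for the mean ± SD over the 3 pools of a group. At 50 mg/kg Zeb2 sat between 1.72 and 3.14 CPM in the CD4+ pools against 12.7 to 15.9 CPM in saline, and Eomes sat between 31.4 and 34.8 CPM against 7.63 to 12.3 CPM.

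With CSA, the 8 factors moved in both directions and the high dose split them. Among CD4+ T cells at 50 mg/kg, Eomes, Id2, Runx3 and Irf8 rose and Zeb2, Prdm1 and Bhlhe40 fell, so that 4 of 8 were called higher and 3 lower, where 34.7% of the 10568 genes tested were called higher and 35.8% lower. Among CD8+ T cells at 50 mg/kg, Eomes and Id2 rose and Zeb2, Prdm1, Bhlhe40, Runx3 and Irf8 fell, which is 2 higher and 5 lower, where 37.1% of 10841 genes were called higher and 36.9% lower. With the low dose, 1 of 8 was called higher and 4 lower in CD4+ T cells (26.1% and 25.6% of all genes), and 1 higher and 5 lower in CD8+ T cells (29.9% and 30.3%). Between the doses, 50 mg/kg against 5 mg/kg, 4 were called higher and 3 lower in CD4+ T cells (19.9% and 21.3%), and 1 higher and 5 lower in CD8+ T cells (20% and 21%). The median log2 change of the 8 was -0.19, 0.11 and 0.28 in CD4+ T cells and -0.25, -0.51 and -0.42 in CD8+ T cells for 5 mg/kg against saline, 50 mg/kg against saline and 50 against 5 mg/kg, where the median over all genes lay between -0.01 and 0.00. The comparisons of each dose with saline use the same 3 saline pools.

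These directions rest on the scaling. Scaled to library size alone, the median of all genes moved by -0.37 at 5 mg/kg and -0.45 at 50 mg/kg in CD4+ T cells, and by -0.43 and -0.53 in CD8+ T cells. The share of calls that were higher was then 13.9%, 20.4% and 33.1% in CD4+ T cells for the 3 comparisons in the order above, against 50.4%, 49.2% and 48.2% with TMM, and 15.8%, 19.9% and 28.3% in CD8+ T cells, against 49.7%, 50.1% and 48.8%. The factors called with that scaling were 1 higher and 6 lower, 3 and 5, and 4 and 3 in CD4+ T cells for the same 3 comparisons, and 1 and 7, 0 and 6, and 1 and 7 in CD8+ T cells. In CD8+ T cells at 50 mg/kg neither Eomes nor Id2 then passed, and Tbx21 was called lower. A change given below is therefore a change relative to the bulk of genes.

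**Figure D2:**
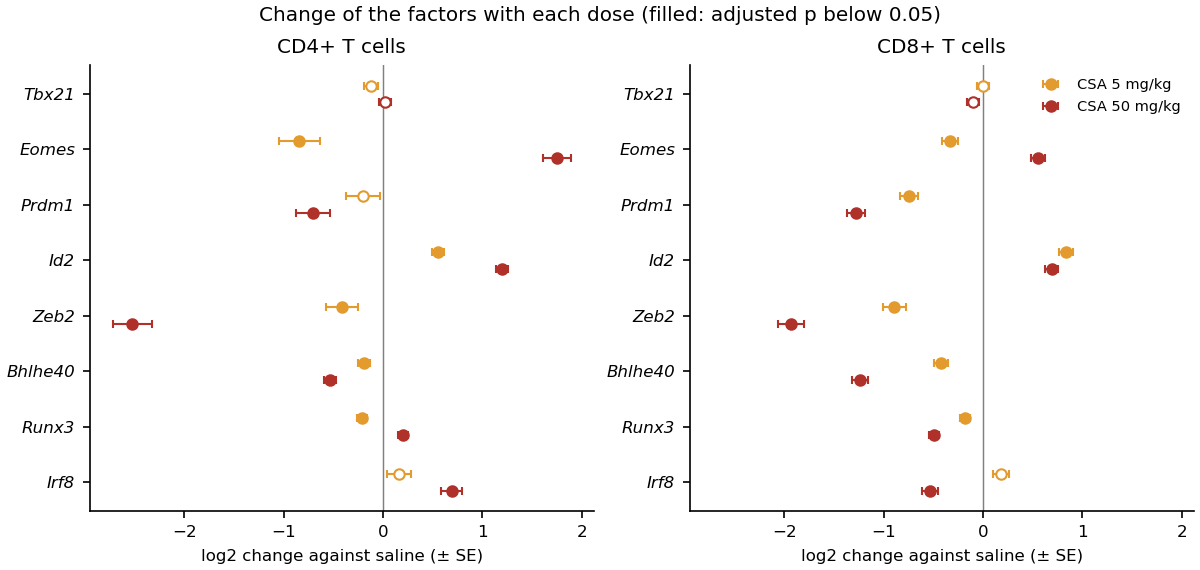
log2 change of each factor against saline (x axis, edgeR, ± SE) at 5 and 50 mg/kg in CD4+ and CD8+ T cells, 3 pools per group, with filled points where the adjusted p was below 0.05. Eomes lay below zero at 5 mg/kg and above zero at 50 mg/kg in both lineages, and Zeb2 at 50 mg/kg lay furthest below zero in both.

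Tbx21, the gene of T-bet, passed no comparison between doses when all cells of a lineage were summed. Its CD4+ level stood at 119.8, 120.6 and 122.0 CPM in the saline pools, at 111.8, 110.5 and 111.0 CPM at 5 mg/kg, and at 139.5, 111.0 and 118.2 CPM at 50 mg/kg. The pools at 5 mg/kg lay below those of saline, and the pools at 50 mg/kg spread over both. Among CD8+ sums the saline pools held 172.1, 166.8 and 149.6 CPM, those at 5 mg/kg 163.0, 162.3 and 164.0 CPM, and those at 50 mg/kg 160.1, 161.4 and 136.2 CPM. The saline pools spread over both CSA groups, and the 50 mg/kg pools lay just below those at 5 mg/kg. Its log2 change at the high dose was 0.02 ± 0.06 in CD4+ T cells (edgeR adjusted p = 0.762) and -0.10 ± 0.06 in CD8+ T cells (0.168). With the low dose it was -0.12 ± 0.07 (0.137) and 0.00 ± 0.06 (0.964). Scaled to library size alone, Tbx21 at 50 mg/kg was at -0.42 in CD4+ T cells (adjusted p = 6.79e-06) and -0.63 in CD8+ T cells (8.31e-08), beside medians of all genes of -0.45 and -0.53. Between the doses Tbx21 differed by 0.14 ± 0.07 in CD4+ (0.09) and -0.10 ± 0.06 in CD8+ T cells (0.23), and with no filter on low counts the CD4+ difference passed (0.15, 0.0433). Without saline replicate 3 the CD8+ value at 50 mg/kg was -0.16 (0.0423).

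Eomes, the second T-box factor, moved in opposite directions at the 2 doses in both lineages. Its CD4+ pools were measured at 9.43, 12.3 and 7.63 CPM in saline, at 3.87, 6.78 and 5.62 CPM at 5 mg/kg and at 34.8, 33.7 and 31.4 CPM at 50 mg/kg. The 3 groups did not overlap, with 5 mg/kg lowest and 50 mg/kg highest. The log2 change was -0.84 ± 0.21 at 5 mg/kg (edgeR adjusted p = 0.00224) and 1.75 ± 0.14 at 50 mg/kg (3.80e-10), a 3.37-fold higher level, and between the doses the level differed 6.02-fold (8.59e-11). The CD8+ pools stood at 34.2, 39.3 and 38.5 CPM in saline, at 30.6, 31.7 and 27.9 CPM at 5 mg/kg and at 53.4, 55.4 and 55.1 CPM at 50 mg/kg, in the same order and again without overlap. There the changes were -0.33 ± 0.08 (0.0018) and 0.55 ± 0.07 (1.23e-06), a 1.46-fold higher level at 50 mg/kg, and between the doses it was 0.87 ± 0.08 (9.86e-08). The rise at 50 mg/kg was smaller in CD8+ than in CD4+ T cells by a log2 difference of -1.25 ± 0.14 (interaction term, adjusted p = 9.66e-07). The CD8+ rise is relative to the bulk of genes, since it was 0.01 (0.867) with library size scaling. Without the cycling clusters the fall at 5 mg/kg in CD8+ T cells was -0.25 (0.0875).

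Zeb2 fell in both lineages, and further at 50 mg/kg than at 5 mg/kg. The CD4+ pools held 14.5, 15.9 and 12.7 CPM in saline, 10.1, 10.4 and 11.6 CPM at 5 mg/kg and 1.72, 2.5 and 3.14 CPM at 50 mg/kg, the last from 10, 15 and 21 UMIs. The CD8+ pools held 21.7, 25 and 23.0 CPM, then 13.8, 9.77 and 13.9 CPM, then 6.24, 6.64 and 5.62 CPM. In both lineages the groups stood apart in the order saline, 5 mg/kg, 50 mg/kg. Its level at the high dose was 5.73-fold lower in CD4+ T cells (log2 -2.52 ± 0.20, edgeR adjusted p = 4.77e-10) and 3.8-fold lower in CD8+ T cells (-1.93 ± 0.13, 2.61e-10). The low-dose change was -0.41 ± 0.16 (0.0376) in CD4+ T cells and -0.89 ± 0.12 (5.63e-06) in CD8+ T cells. The CD4+ call at 5 mg/kg was lost without any single saline or 5 mg/kg pool other than saline replicate 3, with values from -0.32 to -0.48, with DESeq2 (-0.42, 0.167) and without the cycling clusters (-0.37, 0.17). Between the doses the log2 difference was -2.11 ± 0.22 in CD4+ (1.48e-07) and -1.03 ± 0.16 in CD8+ T cells (4.37e-05). The difference between the lineages in the change at 50 mg/kg, 0.56 ± 0.26, did not pass the test (0.147).

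Prdm1, the gene of the repressor Blimp-1, fell in CD8+ T cells at both doses and in CD4+ T cells at the higher dose. Its CD8+ pools stood at 40.5, 43.2 and 39.9 CPM in saline, at 23.4, 26.4 and 24.1 CPM at 5 mg/kg and at 16.8, 15.5 and 18.4 CPM at 50 mg/kg, with no overlap. The changes were -0.74 ± 0.09 (edgeR adjusted p = 8.72e-07) and -1.28 ± 0.09 (2.60e-10), the latter a 2.43-fold lower level. The CD4+ values were 19.5, 17.9 and 23.5 CPM in saline, 10.8, 23.0 and 18.4 CPM at 5 mg/kg and 11.9, 12.5 and 13.0 CPM at 50 mg/kg. The 5 mg/kg pools spread over both other groups, while the 50 mg/kg pools all lay below saline. The CD4+ change was -0.20 ± 0.17 (0.341) at 5 mg/kg and -0.70 ± 0.17 (0.00101) at 50 mg/kg, a 1.63-fold lower level. Between the doses Prdm1 was at -0.54 ± 0.10 (2.86e-04) in CD8+ and -0.51 ± 0.18 (0.0327) in CD4+ T cells, where the call was lost with DESeq2 (-0.48, 0.108), with cells of at least 2000 UMIs (-0.47, 0.0684), without cells holding other lineages' markers (-0.64, 0.138), and without replicate 2 or 3 of 5 mg/kg (-0.28 and -0.47) or 1 or 2 of 50 mg/kg (-0.47 and -0.51). At 50 mg/kg the CD8+ fall exceeded the CD4+ fall by -0.61 ± 0.17 (interaction, 0.0142), a call that was lost without the cycling clusters (-0.05, 0.961), without saline replicate 2 (-0.47, 0.0891), without 50 mg/kg replicate 2 (-0.55, 0.066) and with DESeq2 (-0.60, 0.374). Because plasma cells use Blimp-1, the 5 plasma cell markers are given beside it. Their summed level, in CPM without TMM, in CD8+ pools was 2.98 to 7.13 CPM in saline and 184.4 to 329.8 CPM at 50 mg/kg. In CD4+ pools it was 1.25 to 2.49 CPM and 3.55 to 40.8 CPM. Of the 5 markers, 1 had enough counts for a test at 50 mg/kg in CD4+ and 2 in CD8+ T cells, and 1 was called higher in each lineage. Their part in the result was not tested.

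Id2, the antagonist of E proteins, rose at both doses in both lineages. The CD4+ saline pools stood at 417.7, 370.9 and 456.5 CPM, the 5 mg/kg pools at 567.2, 622.1 and 627.2 CPM and the 50 mg/kg pools at 999.7, 960.4 and 894.6 CPM. The CD8+ pools, in the same order, stood at 385.3, 366.3 and 382.5 CPM, at 657.0, 697.0 and 677.9 CPM and at 641.8, 680.1 and 506.3 CPM. The CD4+ groups followed the dose without overlap, whereas in CD8+ T cells both CSA groups lay above saline and overlapped each other. The log2 changes were 0.55 ± 0.06 (edgeR adjusted p = 1.22e-07) and 1.20 ± 0.06 (1.12e-13) in CD4+ T cells, and 0.84 ± 0.07 (2.02e-08) and 0.69 ± 0.07 (1.30e-07) in CD8+ T cells. At the high dose these are 2.29-fold and 1.61-fold higher levels. The lineages differed in the change in opposite senses at the 2 doses, by 0.26 ± 0.07 at 5 mg/kg (CD8+ minus CD4+, 0.0256) and by -0.55 ± 0.06 at 50 mg/kg (9.30e-07). Between the doses Id2 differed by 0.65 ± 0.06 in CD4+ (1.08e-08) and by -0.16 ± 0.07 in CD8+ T cells (0.0978). With library size scaling the CD8+ value at 50 mg/kg was 0.16 (0.0667).

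Bhlhe40 was lower than in saline at both doses in both lineages. Its CD4+ level was at 245.3, 251.2 and 282.5 CPM in saline, at 216.1, 226.7 and 241.1 CPM at 5 mg/kg and at 194.2, 184.6 and 161.2 CPM at 50 mg/kg. Its CD8+ level, in that order, was at 171.7, 172.0 and 156.4 CPM, at 122.3, 121.4 and 129.5 CPM and at 80.4, 73.2 and 60.3 CPM. No 2 groups overlapped in either lineage. The changes at 50 mg/kg were -0.53 ± 0.06 in CD4+ T cells (edgeR adjusted p = 1.74e-07), a 1.45-fold lower level, and -1.24 ± 0.08 in CD8+ T cells (6.08e-11), a 2.35-fold lower level. Those at 5 mg/kg were -0.19 ± 0.06 (0.0176) and -0.42 ± 0.07 (8.78e-05), and the CD4+ call was lost without saline replicate 3 (-0.12, 0.146), without 5 mg/kg replicate 1 (-0.15, 0.0917) and without 5 mg/kg replicate 2 (-0.18, 0.0564). Between the doses it differed by -0.82 ± 0.08 in CD8+ (3.20e-07) and -0.35 ± 0.06 in CD4+ T cells (2.00e-04), and the CD4+ call was lost without the cycling clusters (-0.19, 0.0601) and without cells holding other lineages' markers (-0.01, 0.942). The CD8+ fall exceeded the CD4+ fall at both doses, by -0.27 ± 0.08 (interaction, 0.0469) and -0.73 ± 0.08 (2.05e-07).

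Runx3 and Irf8 rose in CD4+ T cells and fell in CD8+ T cells at 50 mg/kg. For Runx3 the CD4+ pools stood at 110.0, 117.0 and 118.4 CPM in saline, at 101.2, 96.0 and 101.9 CPM at 5 mg/kg and at 127.6, 132.3 and 136.9 CPM at 50 mg/kg. The CD8+ pools stood at 162.6, 159.1 and 169.1 CPM, at 144.0, 144.9 and 144.5 CPM and at 121.6, 110.7 and 118.0 CPM. The CD4+ groups were lowest at 5 mg/kg and highest at 50 mg/kg, and the CD8+ groups fell with the dose, all without overlap. The changes at 50 mg/kg were 0.20 ± 0.05 (edgeR adjusted p = 0.00168) in CD4+ T cells, a 1.15-fold higher level, and -0.49 ± 0.05 (3.11e-08) in CD8+ T cells, a 1.4-fold lower level. Low-dose changes were -0.21 ± 0.05 (0.00296) and -0.18 ± 0.05 (0.00325), the latter at -0.15 (0.103) without the cycling clusters, and between the doses Runx3 differed by 0.41 ± 0.05 (3.26e-06) and -0.31 ± 0.05 (7.29e-05). With library size scaling the CD4+ change at 50 mg/kg turned to -0.24 (2.34e-04), beside a median of all genes of -0.45. The difference between the lineages at 50 mg/kg was -0.72 ± 0.07 (interaction, 2.73e-08).

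For Irf8 the CD4+ pools held 46.7, 37.5 and 37.4 CPM in saline, 42.1, 45.0 and 46.9 CPM at 5 mg/kg and 76.1, 67.1 and 51.8 CPM at 50 mg/kg, with only the last group apart from the others. The CD8+ pools held 63.2, 61.0 and 62.9 CPM, 61.1, 75.1 and 73.0 CPM and 44.4, 47.5 and 38.7 CPM, where again the 50 mg/kg group stood apart, here below. The changes at 50 mg/kg were 0.69 ± 0.11 in CD4+ T cells (edgeR adjusted p = 1.16e-05), a 1.61-fold higher level, and -0.53 ± 0.08 in CD8+ T cells (7.64e-06), a 1.44-fold lower level, and they differed by -1.23 ± 0.10 (interaction, 7.69e-09). Its low-dose changes were 0.16 ± 0.12 (0.284) and 0.18 ± 0.08 (0.055), and between the doses it differed by 0.53 ± 0.11 (7.94e-04) and -0.70 ± 0.08 (2.29e-06). B cells and dendritic cells also use Irf8, so their markers are given beside it. The 7 B cell genes summed to 8.26 to 11.9 CPM in the CD4+ saline pools and to 4.35 to 5.33 CPM at 50 mg/kg, with Ms4a1 and Pax5 at 0, and to 21.1 to 24.1 and 23 to 25.5 CPM in the CD8+ pools. The 7 dendritic cell genes summed to 152.0 to 175.5 CPM in the CD4+ saline pools and to 186.7 to 198.5 CPM at 50 mg/kg, and to 184.1 to 188.1 and 190.1 to 223.3 CPM in the CD8+ pools, all without TMM. Of them Flt3 and Cd209a were at 0 in every cell and Cst3 alone had enough counts for a test, with a UMI in 55.8% of cells and TMM-scaled changes at 50 mg/kg of 0.71 in CD4+ and 0.67 in CD8+ T cells, both called. Leaving out every cell with a UMI of a B, plasma, myeloid, dendritic or erythroid marker, 71.8% of all cells, gave Irf8 changes of 0.55 (0.023) and -0.43 (0.0798). No run left out the B cell and dendritic cell markers alone, and their part in the result was not tested further.

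The change at 50 mg/kg thus differed between the lineages for 6 of the 8 factors, all of them less upward or further downward in CD8+ T cells, where 19.3% of 11177 genes had such an interaction in either direction. The median of the 8 interaction terms was -0.66 and that of all genes -0.02. Tbx21 and Zeb2 were the factors that did not pass. With the low dose the interaction passed for 2 of 8, Id2 and Bhlhe40, where 3.57% of genes passed. Neither call at 5 mg/kg held without the pool as a block or without the cycling clusters.

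The authors' deposited clusters, 13 of CD4+ and 9 of CD8+ T cells, were then used to place the factors. The CD4+ clusters comprised Cd226hi effectors (C0, and C6 when cycling), Cd226lo effectors (C1, and C3 when cycling), Tcf7hi precursor-like cells (C2), follicular helper cells (C4), a further cycling effector cluster (C5), cytotoxic cells (C7), Fcer1ghi cells (C8), naive cells (C9), Isg15hi cells (C10), regulatory cells (C11) and Th17 cells (C12). The CD8+ clusters were Cd226hi effectors (C0, cycling in C4), Cd226lo effectors (C1, cycling in C2), cycling effectors (C3), Tcf7hi cells (C5), Fcer1ghi cells (C6), naive cells (C7) and exhausted cells (C8). The CD8+ names were matched to cluster numbers by cell numbers. All 6 cycling genes had their 3 highest levels in the 3 cycling clusters of each lineage, while 3 of 6 naive genes were highest in C9 of CD4+ and 4 of 6 in C7 of CD8+ T cells. Tbx21 and Bhlhe40 are among the genes the study used to describe clusters, and every gene of these cells entered the clustering, so levels between clusters are a description without a test. Cluster levels are CPM of the cluster's sum, without TMM scaling, as mean ± SD over the 3 saline pools, and neighbours in an order count as overlapping where their pools overlap.

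**Figure D3:**
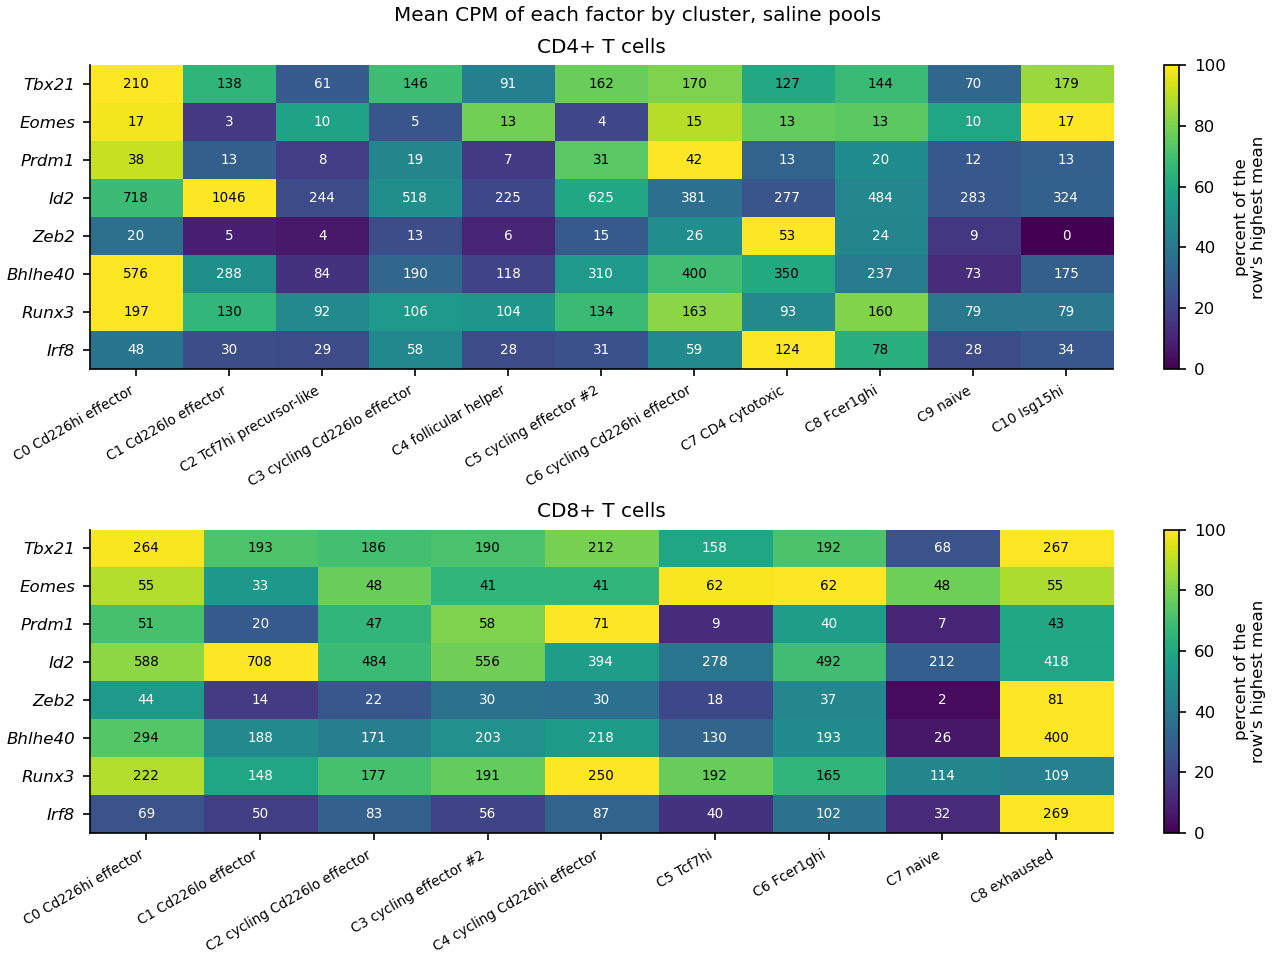
Mean CPM of each factor (numbers in the cells) by cluster in the 3 saline pools, coloured as a percent of the highest mean in that gene's line, for 11 CD4+ and 9 CD8+ clusters. Tbx21, Bhlhe40 and Runx3 were highest in C0 of the CD4+ T cells, Id2 in C1, and Zeb2 and Irf8 in the cytotoxic cluster C7.

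In saline, Tbx21 was highest in C0 of CD4+ T cells (210.5 ± 12 CPM) and lowest in the Tcf7hi cluster C2 (60.7 ± 11.4). Among CD8+ clusters the exhausted C8 (266.6 ± 45.4) and C0 (264.1 ± 11.6) led and overlapped, and the naive cluster C7 was lowest (68 ± 12.4). Of the steps between neighbouring clusters in this order, 8 of 10 in CD4+ and 6 of 8 in CD8+ T cells overlapped. Across the 21 clusters with at least 30 saline cells, the genes whose levels followed Tbx21 most closely were Gem, a small GTPase (Pearson r of log2 CPM = 0.95), Plek (0.91) and Kcnk5 (0.90). These points share 3 pools and 1 capture.

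Eomes gave no ordered ladder of clusters, since all 10 CD4+ and all 8 CD8+ neighbours overlapped. The CD4+ means ran from 2.8 ± 3.07 CPM in C1 to 17 ± 8.5 in C10, and the CD8+ means from 33.1 ± 3.53 in C1 to 62.2 ± 34 in C6, with the Tcf7hi cluster C5 at 61.6 ± 2.32. The genes most like it were Cd8a (r = 0.93) and Cd8b1 (0.92), the coreceptor genes that define the CD8+ lineage, and Iqsec1 (0.85).

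Zeb2 was highest in the cytotoxic C7 of CD4+ T cells (53.1 ± 18.4 CPM), above C6 (26.1 ± 7.86) without overlap, and had no UMI in C10. In CD8+ T cells it was highest in C8 (80.9 ± 6.6), then C0 (43.9 ± 5.23), and lowest in the naive C7 (2.25 ± 3.9). Prdm1 was highest in the cycling Cd226hi clusters, C6 of CD4+ (41.9 ± 9.93), which overlapped C0, and C4 of CD8+ T cells (71.4 ± 5.65), which stood apart from C3, and lowest in the follicular helper cluster C4 (7.15 ± 7.08) and the naive CD8+ cluster (7.4 ± 7.21). Sar1a (r = 0.86) and Ehd1 (0.85) were among the 3 genes most like Zeb2, and Arsb (0.94) and Esyt1 (0.91) among the 3 most like Prdm1.

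Id2 was highest in the Cd226lo effectors C1 of both lineages, at 1046.0 ± 77.3 CPM in CD4+ and 708.0 ± 31.5 in CD8+ T cells, above C0 at 718.3 ± 58.2 and 588.4 ± 13.6 without overlap. It was lowest in the follicular helper cluster (224.9 ± 39.3) and the naive CD8+ cluster (212.5 ± 66.1), and the chemokine receptor genes Ccr2 (r = 0.93) and Cxcr6 (0.90) and the G protein gene Gna15 (0.93) were most like it. Bhlhe40 was highest in C0 of CD4+ T cells (576.2 ± 22), above C6 (400.0 ± 23.1), and in C8 of CD8+ T cells (399.7 ± 82), above C0 (293.6 ± 15.4). It was lowest in the naive clusters of both lineages (73.3 ± 54.9 and 26 ± 17.7). The genes most like it were Degs1 (0.91), Csf1, a myeloid growth factor gene (0.90), and Ero1l (0.89).

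Runx3 ranged from 78.7 ± 13.8 CPM in the naive C9 to 197.3 ± 14.7 in C0 of CD4+ T cells, and from 108.8 ± 28.9 in the exhausted C8 to 250.1 ± 12.6 in C4 of CD8+ T cells. Irf8 was highest in the cytotoxic C7 of CD4+ T cells (123.7 ± 13.4), above C8 (78.3 ± 5.81), and in the exhausted C8 of CD8+ T cells (268.8 ± 9.3), above C6 (102.1 ± 33.1). The genes most like Irf8 were effector genes of activated T cells, the costimulatory receptor Tnfrsf9 (r = 0.87), Ifng (0.86) and the chemokine Ccl3 (0.85). Those most like Runx3 were Plec, Prex1 and Suox (0.86 each).

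Within clusters, each with its own scaling and at least 10 cells in each pool used, each pair called at 50 mg/kg had the direction that its factor had over the whole lineage. Among CD4+ clusters 25 of 59 pairs of a factor and a cluster were called at 50 mg/kg, 17 higher and 8 lower, where 30.2% of all 56294 pairs of a gene and a cluster were called. Of the CD8+ pairs, 35 of 57 were called, 9 higher and 26 lower, where 43.4% of 52013 pairs were called. With the low dose 8 of 59 CD4+ pairs (4 higher, 4 lower) and 16 of 65 CD8+ pairs (5 higher, 11 lower) were called, where 13% and 20.4% of all pairs were. Of the called pairs, 17 of 25 and 22 of 35 at 50 mg/kg, and 1 of 8 and 10 of 16 at 5 mg/kg, kept their call in every alternative run. The cycling Cd226hi cluster C4 of CD8+ T cells held 1015 saline cells but 81 low-dose and 20 high-dose cells, too few to test at the higher dose.

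**Figure D4:**
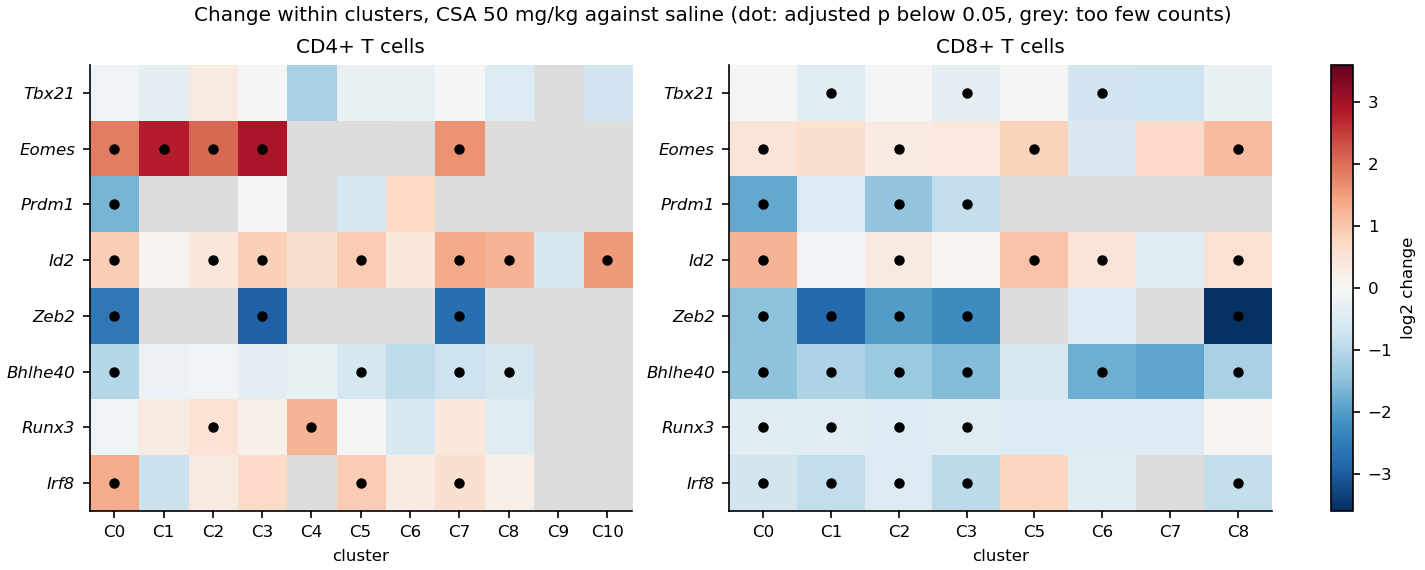
log2 change (colour) of each factor within each cluster, 50 mg/kg against saline, with a dot where the edgeR adjusted p was below 0.05 and grey where a gene had too few counts to test. Eomes was above zero in every CD4+ cluster tested and Zeb2 below zero in every cluster tested of both lineages.

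Eomes rose in all 5 CD4+ clusters tested at 50 mg/kg, from 1.62 ± 0.52 in C7 (edgeR adjusted p = 0.017) to 2.93 ± 0.46 in C3 (4.11e-05). In CD8+ T cells it rose in 4 of 8, C0 (0.46), C2 (0.29), C5 (0.82) and C8 (1.12), with C6 at -0.53 ± 0.34 (0.22). Scaled to library size alone, none of these 4 CD8+ values passed (-0.11, -0.07, 0.36 and 0.68), nor did any with DESeq2, and the CD4+ C7 call was lost with both (1.28, 0.0545, and 1.78, 0.11). Zeb2 fell in all 3 CD4+ clusters tested, by log2 values of -2.58 in C0, -2.92 in C3 and -2.71 in C7, and in 5 of 6 CD8+ clusters, furthest in the exhausted C8 (-3.57 ± 0.57, 1.78e-05). The exception was the Fcer1ghi cluster C6 (-0.46 ± 0.42, 0.403), where Zeb2 stood at 37.4 ± 7.63 CPM in saline and 23.5 ± 9.7 at 50 mg/kg. In the CD4+ Fcer1ghi cluster C8, where it had too few counts for a test, it stood at 24.4 ± 5.71 and 19.5 ± 2.44 CPM.

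Prdm1 fell in C0 of both lineages (-1.68 ± 0.34, edgeR adjusted p = 5.02e-05, in CD4+ and -1.85 ± 0.26, 1.03e-08, in CD8+ T cells), and in C2 (-1.41) and C3 (-0.85) of CD8+ T cells. Bhlhe40 was below zero in all 9 CD4+ and all 8 CD8+ clusters tested and passed in 4 and 6 of them. Its largest called fall was -1.76 ± 0.23 (3.39e-08) in the CD8+ Fcer1ghi cluster. Id2 rose in 7 of 11 CD4+ and 5 of 8 CD8+ clusters, among them C0 of both lineages (0.89 ± 0.10, 5.55e-11, and 1.23 ± 0.06, 2.42e-28). Scaled to library size alone, its calls were lost in CD4+ C2 (0.24, edgeR adjusted p = 0.107) and in CD8+ C2 (-0.03, 0.782), C6 (0.10, 0.589) and C8 (0.10, 0.645). In the Cd226lo effectors C1, where Id2 was highest in saline, it was at 0.12 ± 0.07 (0.218) in CD4+ and -0.09 ± 0.07 (0.383) in CD8+ T cells.

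Irf8 rose in the CD4+ clusters C0 (1.33 ± 0.18, edgeR adjusted p = 2.44e-08), C5 (0.91) and C7 (0.57), and fell in the CD8+ clusters C0, C1, C2, C3 and C8, by log2 values from -0.50 to -0.94. In CD8+ C5, the Tcf7hi cells, it stood at 0.77 ± 0.34 (0.0727), and in CD4+ C1, the Cd226lo effectors, at -0.76 ± 0.31 (0.0727). Runx3 rose in C2 (0.53) and C4 (1.21) of CD4+ T cells and fell in C0 to C3 of CD8+ T cells, from -0.38 to -0.46. Tbx21 passed in no CD4+ cluster at 50 mg/kg, where 8 of 10 values were below zero, and fell in the CD8+ clusters C1 (-0.40), C3 (-0.31) and C6 (-0.70). None of these Tbx21 calls held with DESeq2 (-0.38, -0.27 and -0.69, DESeq2 adjusted p from 0.0808 to 0.141). The Irf8 calls in CD4+ C5 and C7 and the Runx3 call in CD4+ C2 were lost with DESeq2 and with library size scaling, with direction kept. The Runx3 call in CD8+ C1 was lost with DESeq2 (-0.37, 0.159). At 5 mg/kg Id2 rose in C0 of CD8+ T cells by 1.08 ± 0.08 (edgeR adjusted p = 3.66e-19) and in C1, C2, C3 and C6. Bhlhe40 fell there in C0, C2, C3, C5 and C6, and Eomes in the cycling Cd226lo cluster C2 (-0.84 ± 0.14, 6.41e-05). Prdm1 fell in CD8+ C2 (-0.55) and C3 (-0.87). Tbx21 fell in CD8+ C0 (-0.59 ± 0.16, 0.00359) and CD4+ C10 (-1.20 ± 0.38, 0.026). In CD4+ T cells Bhlhe40 fell in C0 (-0.31 ± 0.11, 0.0446) but rose in C4 (0.74 ± 0.25, 0.0498). The C4 call was lost with DESeq2 (0.77, 0.0697).

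To separate levels within clusters from the mix of clusters, each pool's level was recomputed with fixed cluster weights. Each cluster was weighted by its UMI share over the saline pools together. Clusters with fewer than 10 cells in any pool were joined into 1 class (C6, C11 and C12 of CD4+, and C4 and C8 of CD8+). The mix inside that class was not held fixed. In CD8+ T cells the class held 1015 C4 and 107 C8 cells in saline, against 20 and 124 at 50 mg/kg. These ratios carry no test. At 50 mg/kg the sign was kept for 7 of 8 factors in CD4+ T cells and for 6 of 8 in CD8+ T cells, and for 8 of 8 in CD8+ T cells with the joined class left out. In CD4+ T cells the log2 ratio of Eomes was 2.14 with fixed shares and 1.77 over all cells, that of Zeb2 -2.75 and -2.55, and that of Id2 0.93 and 1.20. Among CD8+ T cells Prdm1 gave -1.52 and -1.29, and Bhlhe40 -0.77 and -1.23. Irf8 in CD8+ T cells turned from -0.52 to 0.15, and was -0.33 without the joined class. At the low dose several falls were near or above zero with fixed shares, among them Zeb2 (0.40 against -0.42), Runx3 (0.02 against -0.21) and Bhlhe40 (0.02 against -0.19) in CD4+ T cells, and Zeb2 (-0.10 against -0.90) and Runx3 (0.03 against -0.18) in CD8+ T cells. With the joined class left out, Zeb2 was at 0.15 in CD4+ and -0.64 in CD8+ T cells, and CD8+ Runx3 was at -0.01. Within clusters at 5 mg/kg, Zeb2 was called lower in C2 and C3 of CD8+ T cells (-0.90 each). In the 3 CD4+ clusters tested it was below zero without a call (C0 -0.73, C3 -0.65, C7 -0.75).

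**Figure D5:**
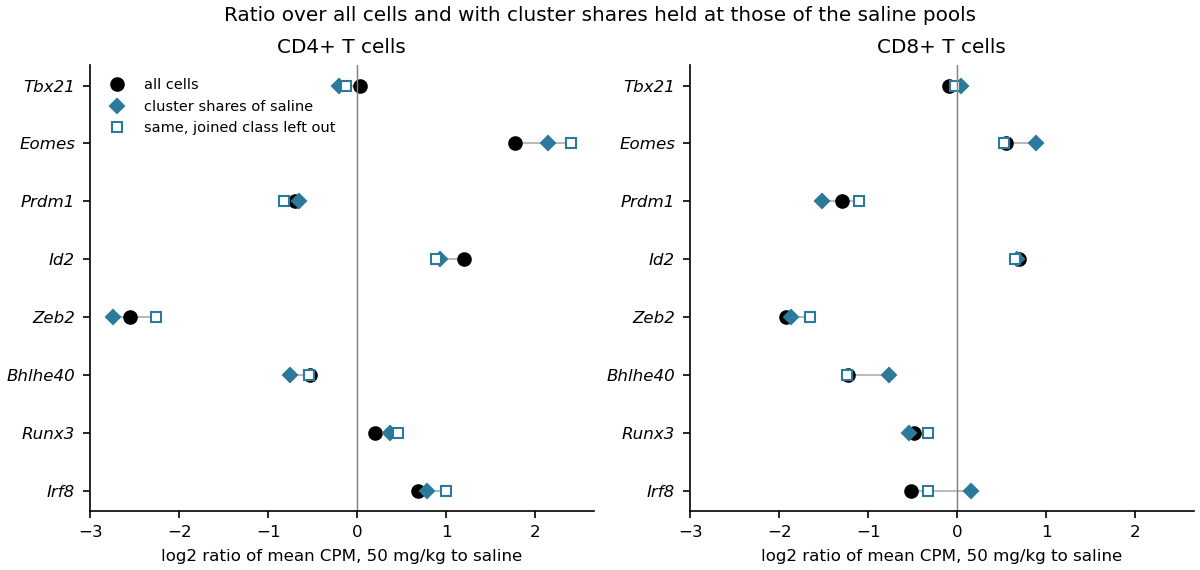
log2 ratio of mean CPM, 50 mg/kg to saline (x axis), over all cells (circles), with cluster shares held at those of saline (diamonds) and with the joined class of scarce clusters left out (squares), 3 pools per group. The 3 marks of a factor lay on the same side of zero except for Tbx21 in both lineages and Irf8 in CD8+ T cells.

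The share of cells with a UMI was compared after thinning every cell to 2000 UMIs, since depth differed between groups. Thinning sets a common total, as library size scaling does, and so leaves the shift of the bulk of genes in the shares. Cells under that depth were left out, 395, 452 and 80 of the CD4+ cells and 121, 83 and 8 of the CD8+ cells in saline, 5 mg/kg and 50 mg/kg. In CD4+ T cells the share with Zeb2 went from 2.69% in saline through 1.9% to 0.368%, and with Bhlhe40 from 37.9% through 28.2% to 23.6%. Both fell with dose in an exact Jonckheere-Terpstra test over pools (two-sided exact p = 0.00119, the smallest that 1680 assignments can give, adjusted p = 0.00212 over 16 tests). Naive cells of C9, at a median of 1981 to 3216 UMIs, held Zeb2 in 1.03%, 0.796% and 0% and Bhlhe40 in 11.5%, 5.76% and 0.81%. Of the 110, 105 and 94 naive cells, 54, 96 and 83 had the depth for thinning, so the naive shares rest on few cells. Prdm1 was in 4.42%, 2.98% and 1.76% of CD4+ T cells with the same exact p, but naive cells held it in 3.87%, 3.84% and 0.609%, more than all cells at 5 mg/kg, so no order is read from it. Before thinning, the CD4+ shares were 4.9%, 3.89% and 1.23% for Zeb2 and 48.9%, 45.7% and 46.9% for Bhlhe40. The thinned CD4+ share had no trend call for Irf8 (8.15%, 7.26% and 8.29%) or Runx3 (23.6%, 17% and 21.3%, adjusted exact p = 0.478). Before thinning these were 13.8%, 15.1% and 21.7% for Irf8 and 35.2%, 33.7% and 50.2% for Runx3.

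Among CD8+ T cells the thinned share with Prdm1 went from 8.73% through 4.57% to 2.6%, with Zeb2 from 5.09% through 2.26% to 1.12%, and with Bhlhe40 from 31.5% through 20% to 10.8%, each with the same exact p. Irf8 had that p as well, at 12.8%, 10.9% and 6.2%, but its TMM-scaled change at 5 mg/kg was above zero and its share before thinning was highest at that dose, so no order is read from it. Before thinning these shares were 18.1%, 13.2% and 10.3% for Prdm1, 9.98%, 6.27% and 3.51% for Zeb2, 51.7%, 45.7% and 31.6% for Bhlhe40 and 25.7%, 29% and 19.9% for Irf8. The naive CD8+ cells of C7, at a median of 3499 to 4995 UMIs, held Prdm1 in 1.03%, 0.921% and 0.121%, Zeb2 in 0.498%, 0.374% and 0.994%, Bhlhe40 in 4.76%, 9.09% and 0.96% and Irf8 in 5.42%, 6.45% and 3.95%. The thinned Runx3 share fell as well, 31.4%, 23% and 18%, beside 20.4%, 17.7% and 17% in naive cells, so that at 50 mg/kg it was close to the naive share. Tbx21 shares fell in CD8+ T cells, 32.5%, 24.7% and 21.7%, while the TMM-scaled level did not pass a test, so no order is read from them. Eomes was in 8.62%, 5.58% and 8.63% of CD8+ T cells, at or below the share in naive cells (8.62%, 12.4% and 12.3%), from which nothing is read. In CD4+ T cells Eomes was in 2.04%, 1.11% and 5.12% of cells, and naive cells held it in 4.87%, 0% and 0%. The naive saline value comes from the 54 of 110 cells kept, and before thinning it was 2.73%. The thinned Id2 share was 54.4%, 54.4% and 68.3% in CD4+ and 54.9%, 61.9% and 53.8% in CD8+ T cells (adjusted exact p = 0.0606 and 1), beside naive shares of 30.7%, 27.5% and 13.7% and of 31.7%, 31.1% and 21.2%.

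T-bet and Eomes are often described as a pair, and both genes were seen in the same thinned cell in 0.41% ± 0.0689 (SD, n = 3), 0.126% ± 0.0594 and 0.86% ± 0.0183 of CD4+ T cells in saline, 5 mg/kg and 50 mg/kg. The CD8+ values were 2.62% ± 0.0873, 1.28% ± 0.124 and 2.12% ± 0.136. Of the Eomes-positive CD4+ cells, 20.7% ± 6.58, 12% ± 6.19 and 16.8% ± 0.874 also held Tbx21, against 23.9%, 16.8% and 17.8% of all CD4+ cells. These shares are a description without a test.

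Cells whose clonotype was seen in at least 2 cells of a pool were compared with cells of single clonotypes, in all 9 pools with the pool as a block. In CD4+ T cells 2 of 8 factors were higher in expanded clonotypes and 0 lower, where 8.95% and 8.42% of 9924 genes were, with a median of 0.16 over the 8 and -0.01 over all genes. Tbx21 stood at 136.4 CPM in expanded and 112.6 CPM in single clonotypes and was higher in 9 of 9 pools (log2 0.25 ± 0.05, edgeR adjusted p = 0.00105). Id2 was higher by 0.11 ± 0.04 (0.0262) in 8 of 9 pools. The others that did not pass were Eomes (-0.16), Prdm1 (0.37), Zeb2 (0.30), Bhlhe40 (0.12), Runx3 (0.03) and Irf8 (0.21), with adjusted p from 0.0659 to 0.798. In CD8+ T cells 1 of 8 was higher and 1 lower, where 6.59% and 7.1% of 10075 genes were, with a median of -0.03. Irf8 was higher by 0.16 ± 0.06 (0.0482) in 9 of 9 pools and Id2 lower by a log2 value of -0.16 ± 0.05 (0.0156), higher in 3 of 9 pools. Tbx21 (0.05), Eomes (-0.20), Prdm1 (0.22), Zeb2 (-0.41), Bhlhe40 (-0.12) and Runx3 (0.10) did not pass there, with adjusted p from 0.0503 to 0.447. More cells of expanded clonotypes lay in cycling clusters, 43.2% against 24% in CD4+ and 63.2% against 45.7% in CD8+ T cells. Without the cycling clusters neither CD8+ call held (Irf8 0.32, 0.164; Id2 -0.11, 0.508), and the CD4+ Id2 value was 0.05 (0.764), while the Tbx21 call did. The part of cycling in these results was not tested further.

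Genes of the same network were read beside the factors in 3 lists. With TMM scaling, 34.7% of all genes tested were called higher at 50 mg/kg and 35.8% lower in CD4+ T cells. In CD8+ T cells these shares were 37.1% and 36.9%. The counts of all 3 lists stand beside these shares, and no list was tested as a set. Of the targets of T-bet and Eomes, 17 of 18 were tested in CD4+ and 18 in CD8+ T cells at 50 mg/kg, and 6 rose and 6 fell in CD4+ (list median 0.04, all genes -0.01) and 9 rose and 8 fell in CD8+ T cells (0.25, all genes 0.00). With library size scaling these were 4 and 9, and 6 and 10. In both lineages the inhibitory receptor gene Klrg1 and the chemokine gene Ccl5 rose while the chemokine receptor gene Cx3cr1, a mark of terminal effectors, fell. Klrg1 went from 13.9 ± 1.82 CPM in saline through 18.7 ± 2.39 to 154.7 ± 18.6 in CD4+ T cells (log2 3.46 ± 0.10 at 50 mg/kg, edgeR adjusted p = 6.86e-17), and from 28.4 ± 3.96 through 21.4 ± 4.43 to 178.3 ± 56.8 in CD8+ T cells (2.64 ± 0.19, 5.80e-10). Ccl5 rose by 1.91 ± 0.10 (2.61e-13) and 3.01 ± 0.05 (2.08e-17), the receptor gene Klrd1 by 1.91 ± 0.05 (6.26e-16) in CD8+ T cells, and Il18r1 fell in CD4+ T cells (-2.19 ± 0.06, 1.25e-17). Cx3cr1 fell in CD8+ T cells from 46.6 ± 3.26 to 4.66 ± 0.951 CPM (-3.34 ± 0.12, 4.15e-14). The CD4+ sums held 200 UMIs in saline and 3 at 50 mg/kg, a scaled ratio of 68.2 with a 95% counting interval of 23 to 334.

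Of 18 partners and related factors, 16 were tested, and 3 rose and 7 fell in CD4+ (list median -0.18) and 4 rose and 8 fell in CD8+ T cells (-0.28). With library size scaling these were 3 and 11, and 1 and 11. Runx2, the paralog of Runx3, fell in both lineages (-1.22 ± 0.07, edgeR adjusted p = 1.41e-12, and -1.38 ± 0.05, 8.75e-14), and Hopx, a homeodomain cofactor, rose in both (1.45 ± 0.05, 1.11e-15, and 1.58 ± 0.05, 4.16e-15). In CD4+ T cells the zinc finger gene Zbtb32 rose (1.72 ± 0.09) and the E protein gene Tcf12 fell (-1.15 ± 0.08), and in CD8+ T cells Irf4 (-0.87 ± 0.11) and Runx1 (-0.83 ± 0.08) fell.

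Of 14 naive and memory genes that effector factors oppose, 14 were tested in CD4+ and 13 in CD8+ T cells, where 6 rose and 6 fell (list median -0.20) and 6 rose and 4 fell (0.18). With library size scaling these were 3 and 9, and 2 and 8. Tcf7, the gene of TCF-1, fell in both lineages (-1.82 ± 0.09, edgeR adjusted p = 3.42e-13, and -1.07 ± 0.13, 6.90e-07), as did Bcl6, the repressor opposed by Blimp-1, which went from 21 ± 2.82 CPM to 3.81 ± 0.457 in CD4+ (-2.48 ± 0.16, 1.78e-11) and from 3.95 ± 0.39 to 1.5 ± 0.387 in CD8+ T cells (-1.41 ± 0.26, 8.87e-05). The follicular homing receptor gene Cxcr5 fell in CD4+ T cells (-4.48 ± 0.18, 3.73e-15), and in CD8+ T cells it had 123 UMIs in saline and none with the high dose, which against a floor of 3 counts over the group is at least 36.3-fold lower. Il7r fell in CD4+ T cells (-1.04 ± 0.09), and Klf2, a quiescence factor, rose in CD8+ T cells (1.05 ± 0.04, 1.77e-14).

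Markers of other cells were read in the same sums, in CPM without TMM scaling. Where counts on the TMM scale are given, 34.7% of all genes were called higher and 35.8% lower in CD4+ T cells at 50 mg/kg. In CD8+ T cells these were 37.1% and 36.9%. The 5 T cell genes summed to 3226.8 to 4275.6 CPM over all pools. The 4 NK cell genes summed to 0.444 to 11.2 CPM, with Klra8 and Klra4 at 0 in saline, and the 9 myeloid genes to 107.3 to 146.2 CPM in CD4+ saline pools and 90.6 to 186.2 CPM at 50 mg/kg. In CD8+ pools the myeloid sum was 214.5 to 258.7 CPM in saline and 249.1 to 328.6 CPM at 50 mg/kg, and on the TMM scale 4 of 7 myeloid genes tested rose and 1 fell in CD4+ and 5 of 8 rose and 1 fell in CD8+ T cells at 50 mg/kg. The 6 naive genes were lower at 50 mg/kg, at 581.9 to 715.5 CPM against 1097.6 to 1164.5 CPM in CD4+ and 454.0 to 506.3 CPM against 622.0 to 634.2 CPM in CD8+ T cells, while on the TMM scale 3 of the 6 rose and 3 fell in CD4+ and 3 rose and 1 fell in CD8+ T cells. The 5 erythroid genes were higher at 50 mg/kg, 23 to 45.5 CPM against 2.67 to 17.2 CPM in saline, and the 6 cycling genes were lower in CD8+ T cells, 1816.5 to 2215.9 CPM against 3431.9 to 3607.9 CPM, while on the TMM scale 4 of the 6 rose and 2 fell. Their part in the results was not tested beyond leaving out the cycling clusters. Leaving out every cell with a UMI of a B, plasma, myeloid, dendritic or erythroid marker removed 71.8% of cells, most through Cst3 or Itgax, and a narrower list removed 22.1%, after which the numbers of factors called were the same in all 6 dose comparisons. With the wider list, the calls at 50 mg/kg of Eomes (0.39, edgeR adjusted p = 0.0801) and Irf8 (-0.43, 0.0798) in CD8+ and of Runx3 in CD4+ T cells (0.17, 0.101) were lost with direction kept.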

How the data were processed

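Single-cell 5′ gene expression, hashtag and TCR libraries of donor spleen T cells from 3 captures were used. The authors' deposited matrix holds UMI counts per gene and cell. The submitters' processing notes name Cell Ranger, Seurat 3.0.0 and mm10. A deposited table of the authors gives pool, lineage, cluster, clonotype and a fraction of mitochondrial reads per cell, after their filters on cells and doublets. That fraction was not used as a filter. Cells were summed per lineage and hashtag pool, as that table assigns them (692 to 1615 cells). Counts were tested with edgeR 4.0.16 in R 4.3.3 (filterByExpr, TMM, quasi-likelihood, 9 pools in 1 fit, Benjamini-Hochberg at 0.05). Lineage, interaction and clonotype fits had the pool as a block. Within clusters, a pool needed 10 cells. Fits were tested on simulated data. Shares of cells were thinned to 2000 UMIs and tested by exact permutation. Tables and figures were made in Python 3.11.15 with numpy 2.4.6, pandas 2.3.3, scipy 1.17.1 and matplotlib 3.10.9.

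Alternatives were DESeq2 1.42.0, library size scaling, no filter on low counts, each pool left out, cells of at least 2000 UMIs, and cells with second hashtags, cycling clusters or other lineages' markers left out. The members and the gene lists were chosen with earlier results of these data known. The 8 genes are named in the dose, lineage and clonotype comparisons, with up to 4 genes per list by the largest change at 50 mg/kg and the 3 genes most like each by Pearson correlation of log2(CPM + 10) over saline clusters, among 6481 genes averaging at least 20 CPM. A few genes that these rules name are not reported here. Intervals cover counting error only. Replicate pools differed by more than sampling noise (chi-square per degree of freedom 1.5 to 5.51). The proximal sequences are from RefSeq.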

Additional observations from a re-analysis of the deposited data

Results flagged for a closer look

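The change with CSA differed between the lineages, by an interaction term in a fit with the pool as a block, for 2 factors at 5 mg/kg and for 6 at 50 mg/kg. At 5 mg/kg the change in CD8+ minus that in CD4+ T cells was 0.26 (log2) for Id2 and -0.27 for Bhlhe40. At 50 mg/kg it was -1.25 for Eomes, -0.61 for Prdm1, -0.55 for Id2, -0.73 for Bhlhe40, -0.72 for Runx3 and -1.23 for Irf8. The Prdm1 call was lost without the cycling clusters (-0.05, adjusted p = 0.961), with DESeq2 and without replicate 2 of saline or of 50 mg/kg, and neither call at 5 mg/kg held without the pool as a block or without the cycling clusters. For Runx3 and Irf8 the 2 lineages moved in opposite directions, and for Eomes and Id2 both rose, CD4+ T cells further. The CD4+ and CD8+ sums of a pool come from the same mice and the same capture.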

How the results depend on the processing

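The counts of factors called at 50 mg/kg against saline were 7 of 8 in both lineages and stayed within 7 to 8 without any single pool. With library size scaling the value turned to -0.42 for Tbx21 and -0.24 for Runx3 in CD4+ T cells at 50 mg/kg, to -0.42 for Tbx21 and -0.25 for Irf8 in CD8+ T cells at 5 mg/kg, and within CD8+ clusters at 50 mg/kg to -0.11 for Eomes in C0, -0.07 for Eomes in C2 and -0.03 for Id2 in C2. Without the cycling clusters Tbx21 in CD8+ T cells at 5 mg/kg was -0.20. Leaving out cells with other lineages' markers lowered the counts from 5 to 3 (CD4+, 5 mg/kg), from 7 to 4 (CD4+, between doses), from 6 to 3 (CD8+, 5 mg/kg) and from 6 to 1 (CD8+, between doses). It removes 71.8% of cells, and the narrower list, chosen after seeing the data, left all 6 counts as they were (5, 7 and 7 in CD4+, 6, 7 and 6 in CD8+ T cells).

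Without single pools the CD4+ count at 5 mg/kg ran from 3 to 6, and was 3 without replicate 1 or 2 of that dose. The interaction count at 5 mg/kg, 2, was 1 with DESeq2, 0 without the replicate block, 0 without cycling clusters and 0 to 3 without single pools (0 without saline replicate 1 or 5 mg/kg replicate 2, and 1 without saline replicate 2, 5 mg/kg replicate 1 or 3, or 50 mg/kg replicate 2). The clonotype count of CD4+ T cells, 2, was 1 in the saline pools alone and 1 to 3 without single pools (1 without saline replicate 2). That of CD8+ T cells, 2, was 1 with DESeq2, 0 without cycling clusters and 0 to 3 without single pools (0 without replicate 3 of saline or of 50 mg/kg, and 1 without 5 mg/kg replicate 2). Within clusters at 5 mg/kg, the 8 CD4+ calls were 15 with library size scaling, 3 with DESeq2 and 2 to 10 without single pools (2 without saline replicate 2, and 5 without saline replicate 1 or 5 mg/kg replicate 2 or 3), and the 16 CD8+ calls were 30 with library size scaling. The 3 shares of CD4+ T cells with a trend were 3 to 5 without single pools (5 without 5 mg/kg replicate 1), and the 6 of CD8+ T cells were 3 without thinning. The causes were not tested.

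The replicate number in the pool names does not pair pools across groups. Same-numbered pools correlated in their deviations from group means at -0.08 to 0.03 in CD4+ and -0.13 to 0.09 in CD8+ T cells, and the best match had the same number in 4 and 3 of 18 cases. With that number as a replicate block the 6 counts were 5, 7, 7, 6, 7 and 6, the same as without it. Of the values of single genes, 1363 kept direction and side of the threshold without a single pool and 135 crossed it, and under the other alternatives 869 kept both, 93 crossed it and 8 reversed. With 3 pools of 1 capture per group, capture and treatment cannot be told apart, and genes of few UMIs, such as Zeb2 in CD4+ T cells at 50 mg/kg, have the widest errors.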

Other observations

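The 280 TEa cells, CD4+ T cells of a single receptor that were left out of the sums, numbered 123 (saline), 130 (low dose) and 27 (high dose), and their values carry no test. In their summed UMIs, Tbx21 stood at 145.2 CPM in saline (95% Poisson interval 114.6 to 181.5, counting error only), 86.2 with the low dose (66.7 to 109.7) and 121.9 with the high dose (81 to 176.1). Bhlhe40, the repressor that fell in both polyclonal lineages, stood at 296.1 CPM (251.6 to 346.2), 186.8 (157.5 to 220.1) and 39.2 (17.9 to 74.4). Id2 stood at 482.8 CPM (425.5 to 545.7), 674.2 (617.3 to 734.9) and 578.8 (484.7 to 686.0). Zeb2 had 15, 9 and 0 UMIs and Prdm1 9, 9 and 0, where the 27 cells at 50 mg/kg allow up to 16.1 CPM at a count of 0. Eomes had 2, 2 and 0 UMIs. Runx3 stood at 113.2 CPM (86.3 to 145.6), 86.2 (66.7 to 109.7) and 108.8 (70.4 to 160.6), and Irf8 at 35.8 CPM (21.6 to 56), 36.6 (24.3 to 52.9) and 60.9 (33.3 to 102.2).

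In the follicular helper cluster of CD4+ T cells, C4, which went from 733 saline cells to 189 low-dose and 45 high-dose cells, Zeb2 was at 5.56 CPM ± 3.49 (SD, n = 3), 33.4 ± 13.9 and 0, from 10, 10 and 0 UMIs. It had too few counts for a test there.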
